A study of Mus musculus with 20 samples.

Results

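The data described here are the 6 arrays, of 20 in the series, on which RNA of MLE12 cells given the intracellular domain of Notch1 (NICD1) was compared with RNA of cells given the empty vector 12 h after transfection. The 6 arrays were taken by their titles and time label. MLE12 is a mouse lung epithelial line from tumours of mice that carried the SV40 large T antigen under the surfactant protein C promoter, and it keeps features of alveolar type II cells, which secrete surfactant. The NICD1 group received the NICD1-pIRES-DsRed2 construct and the control group the empty vector, both with Lipofectamine2000. Both groups were grown in the same DMEM/F12 medium with serum, hydrocortisone, estradiol, insulin, transferrin and selenite. The labels describe no selection or sorting of transfected cells, and the share of cells that took up plasmid is not stated.

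Each array held both RNAs of 1 replicate, and the series design calls the replicates independent. NICD1 RNA carried Cy5 on replicates 1, 3 and 5 and Cy3 on replicates 2, 4 and 6. The values are log2 ratios of NICD1 over empty vector, so a value of 1 is a doubling and a value of -1 a halving of the ratio. Levels in either RNA were not analysed here, and a ratio between RNAs of the same line cannot check the labelled cell type. Of 13 alveolar type II markers, 10 had values. In such ratios, fewer cells that make an RNA and less of that RNA per cell cannot be told apart.

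Each 12 h array gave 37854 to 39605 values, with an SD across genes from 0.467 to 0.602. Replicate 3 was deposited with its ratio inverted and was multiplied by -1. As deposited, its Nrarp ratio was -1.93 while the other 5 arrays read 1.76 to 2.52. Across the leading genes of the other 12 h arrays, Nrarp left out, the deposited column gave a correlation of -0.758, and each of the other 5 arrays gave 0.629 to 0.782 against the rest. With the dye effect removed, the 12 h arrays correlated with each other at only -0.076 to 0.218 across all genes tested, so most genes varied without a shared pattern. No label states the direction of the other 5 columns, which was read from Nrarp.

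Notch receptors are cleaved when a ligand on a neighbouring cell binds them, and the freed intracellular domain enters the nucleus, where it joins the DNA-binding protein RBPJ and Mastermind coactivators. Direct targets include the Hes and Hey repressors and Nrarp, an ankyrin-repeat protein that dampens the pathway. In the lung, Notch signalling is known for its part in the choice between secretory and ciliated fates and in the differentiation of basal cells.

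At 12 h, 48 of 17051 genes (0.282%) passed limma's moderated test at a Benjamini-Hochberg adjusted p under 0.05. Of these, 9 were higher with NICD1 (0.0528% of genes tested) and 39 were lower (0.229%). The rises held the Notch targets Nrarp and Hes1, the adhesion genes Cdh15 and Pkp1, the keratin Krt16, Rhov, the ADP-ribosyltransferase Parp10, the secreted netrin Ntn4 and the potassium channel subunit Kcng4. Hspb9, Gna15, Sbk1 and Zscan10 were among the lowest of the falls. The ratio was at least 1 in size for 8 of the 9 rises and 24 of the 39 falls. All 9 rises were above 0, and all 39 falls below 0, on every array that measured them. That is a description, since the 48 were chosen by a test on these arrays and Nrarp set the direction of the columns. Among the 15553 genes measured on all 6 arrays, 1.85% were above 0 on each and 1.93% were below. The median ratio over all genes was 0.0041 and the median SE was 0.15.

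**Figure D1:**
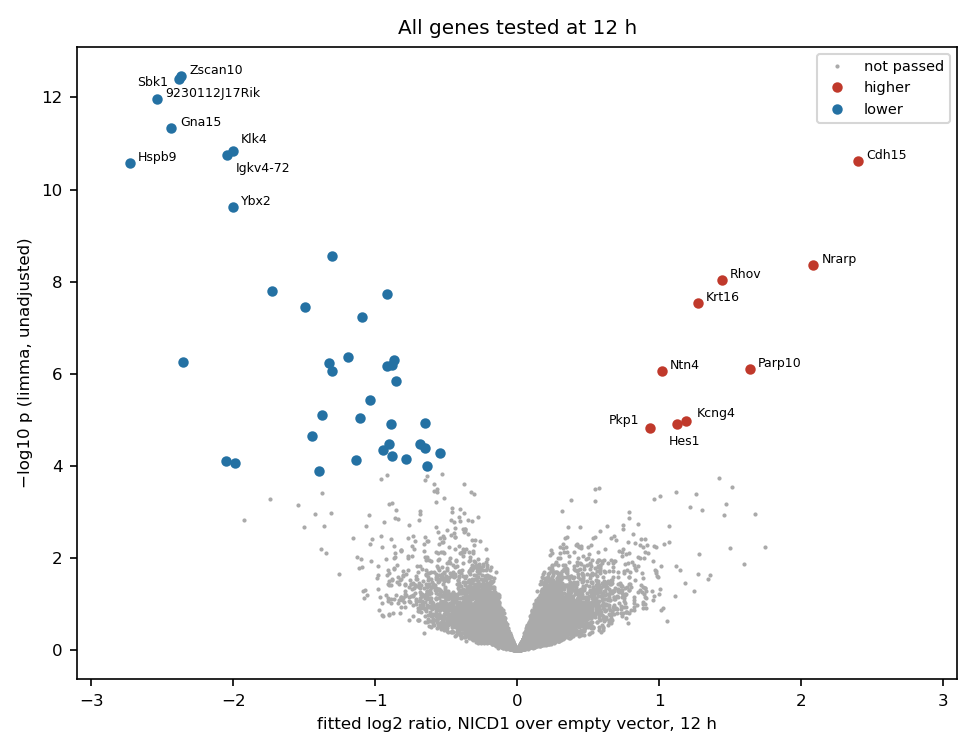
Each point is 1 of the 17051 genes, with its fitted log2 ratio of NICD1 over empty vector at 12 h on the x axis and the negative log10 of its unadjusted limma p on the y axis. Red points are the 9 genes that passed as higher and blue points the 39 that passed as lower; the largest rise was Cdh15 at 2.40 and the largest fall Hspb9 at -2.73.

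The spread behind these tests was estimated per gene over all 20 arrays. With the 6 arrays at 12 h fitted alone, 18 genes passed, 16 of them among the 48. Those 16 held the rises Cdh15, Rhov and Krt16, Nrarp, which set the direction of the columns, and 12 falls. Hes1, Parp10, Kcng4, Ntn4 and Pkp1 did not pass. With the inverted columns as deposited 0 passed (limma, 846 genes at an unadjusted p under 0.05, against 914 in the fit reported, 5.36% of the genes tested).

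Nrarp (Entrez Gene 67122, chromosome 2) had log2 ratios of 2.52, 2.47, 1.93, 1.79, 2.04 and 1.76 on arrays 1 to 6. The arrays lay within 1 unit of each other, and the fitted value was 2.08 ± 0.20 (SE, n = 6), a 4.24-fold higher ratio. Because Nrarp set the direction of the columns, its sign on every array was fixed by that choice, and its value is a description with no test. Hes1 (Entrez Gene 15205, chromosome 16), the repressor that carries much of Notch output, read 0.52, 0.58, 1.19, 1.87, 1.25 and 1.37. Replicates 1 and 2 were the lowest, and the fitted value was 1.13 ± 0.19 (n = 6, limma adjusted p = 0.00628). Of the 11 measured genes on a list of 12 Notch targets, these 2 were among the 48, as were 0.282% of all genes, and none was lower. Since Nrarp set the direction, Hes1 was the only pass on the list with a test. The list's median was 0.15 against 0.0041 over all genes.

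The other Notch targets did not pass at 12 h. Heyl read 0.93, 1.42, 0.41, 0.65, 0.57 and 0.70, above 0 on all 6 arrays, with a fitted value of 0.78 ± 0.28 (limma adjusted p = 0.745). Hey1 read 0.61, 1.13, -0.44, 0.40, -0.09 and 0.20, which spans 0, and its fitted value was 0.30 ± 0.19 (adjusted p = 0.999). Ptcra, the pre-T-cell receptor alpha chain, was at 0.61 ± 0.24 with an adjusted p of 0.809. Heyl and Hey1 both passed as higher at 24 h, at 1.80 and 1.33, but their differences between 12 and 24 h did not pass (adjusted p = 0.595 and 0.0764).

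Notch1 itself (Entrez Gene 18128, chromosome 2), the source of the transfected fragment, read -0.43, 0.64, -0.19, 0.75, 0.33 and 0.58 at 12 h. The arrays with NICD1 in Cy3 averaged 0.66 and those with NICD1 in Cy5 averaged -0.0975, and the fitted value with the dye removed was 0.28 ± 0.15 (limma adjusted p = 0.967). Its 11 rows on the array lay between -0.11 and 1.34 and none passed alone. No label or annotation used here places them within or outside the expressed fragment, so Notch1 does not check the transfection. The ratio passed at 24 h (0.60, adjusted p = 0.0217) and at 48 h (1.07, adjusted p = 3.11e-05).

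None of the 8 measured receptors and ligands passed (0 at an unadjusted p under 0.05), with a median of 0.07. Among the 19 measured genes of receptor processing and the nuclear complex, none passed either, again with 0 at an unadjusted p under 0.05, and the median was 0.01. Rbpj, the DNA-binding partner, stood at -0.19 ± 0.12 and Rfng, a fringe glycosyltransferase that modifies Notch receptors, at -0.28 ± 0.14. Dll1, a Notch ligand, read -0.10 ± 0.11 at 12 h and -0.92 at 24 h, a difference that passed (limma adjusted p = 0.00687).

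Cdh15 rose more than any other gene. It encodes M-cadherin, an adhesion protein best known from skeletal muscle (Entrez Gene 12555, chromosome 8). Its arrays read 2.73, 2.23, 2.67, 2.43, 1.98 and 2.37, a narrow range far from 0, and the fitted value was 2.40 ± 0.17 (n = 6, limma adjusted p = 5.57e-08), a 5.28-fold rise. It went on to 4.08 at 24 h, and the ratio at 12 h minus that at 24 h, -1.68, passed the test of the difference (adjusted p = 0.000303). None of the other 10 measured cadherins passed at 12 h, and the next by p, Cdh16, stood at 0.36 ± 0.13.

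Rhov (Entrez Gene 228543, chromosome 2) also rose. Its 6 values, 1.37, 1.67, 1.40, 1.20, 1.75 and 1.26, overlapped between the dye orientations and gave 1.44 ± 0.15 (n = 6, limma adjusted p = 1.30e-05). Rhov read 1.94 at 24 h and 0.37 at 48 h, and the fall between 12 and 48 h passed (adjusted p = 0.00417).

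Parp10, which attaches single ADP-ribose units to proteins, read 0.84, 1.43, 1.65, 1.85, 1.53 and 2.53 (Entrez Gene 671535, chromosome 15). Its lowest array was replicate 1 and its highest replicate 6, and the fitted value was 1.64 ± 0.23 (n = 6, limma adjusted p = 0.00055). At 24 h Parp10 stood at -0.83 with an adjusted p of 0.0511, and the difference of 2.47 between the times passed (adjusted p = 6.25e-05). No other member of the 13 measured in the PARP family passed at 12 h. The members Parp9, Parp11, Parp12 and Parp14 lay between -0.05 and 0.11 at 12 h and between -1.68 and -0.88 at 24 h. Each of these 4 differences passed too, against 131 of all genes (0.768%) that passed as higher at 12 h than at 24 h. Whether Parp10 differed from those 4 members at 12 h was not tested.

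Krt16 and Pkp1 belong to stratified epithelia, the first as a keratin of activated epidermis and the second as plakophilin-1, a desmosomal plaque protein. Krt16 (Entrez Gene 16666, chromosome 11) read 1.44, 1.25, 1.41, 0.92, 1.49 and 1.11, giving 1.27 ± 0.14 (n = 6, limma adjusted p = 3.23e-05). Pkp1 (chromosome 1) lay between 0.45 and 1.37 and gave 0.94 ± 0.16 (n = 6, limma adjusted p = 0.00728), but lost its call without replicate 1 (adjusted p = 0.0615). These were the 2 members that passed of 19 measured on a list of desmosome and epidermal genes, where the median was 0.20. An unadjusted p under 0.05, a threshold that 5.36% of all genes met, was found for 7. Those 7 held the lowest member of the list, at -0.70 ± 0.26. Of the 19, 12 were above 0, as were 51.1% of all genes. The next members by p were the basal keratin Krt14 at 0.38 ± 0.09 and the desmosome-associated Perp at 0.36 ± 0.10, with adjusted p of 0.13 and 0.309. Krt14 is also the annotated neighbour of Krt16 among the genes tested.

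Ntn4 and Kcng4 completed the rises. Ntn4, a netrin of basement membranes (Entrez Gene 57764, chromosome 10), read 0.81, 0.97, 0.84, 1.62, 1.12 and 0.76. Replicate 4 was the highest, and the fit gave 1.02 ± 0.14 (n = 6, limma adjusted p = 0.000576), while the other 11 netrins and netrin receptors did not pass. Kcng4, a modifier subunit of voltage-gated potassium channels (Entrez Gene 66733, chromosome 8), had no value on replicate 3 and read 1.32, 0.79, 1.23, 1.24 and 1.14 on replicates 1, 2, 4, 5 and 6. Its fitted value was 1.19 ± 0.20 (n = 5, limma adjusted p = 0.00589), and it stood at 0.33 at 24 h, a difference that did not pass (adjusted p = 0.268).

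**Figure D2:**
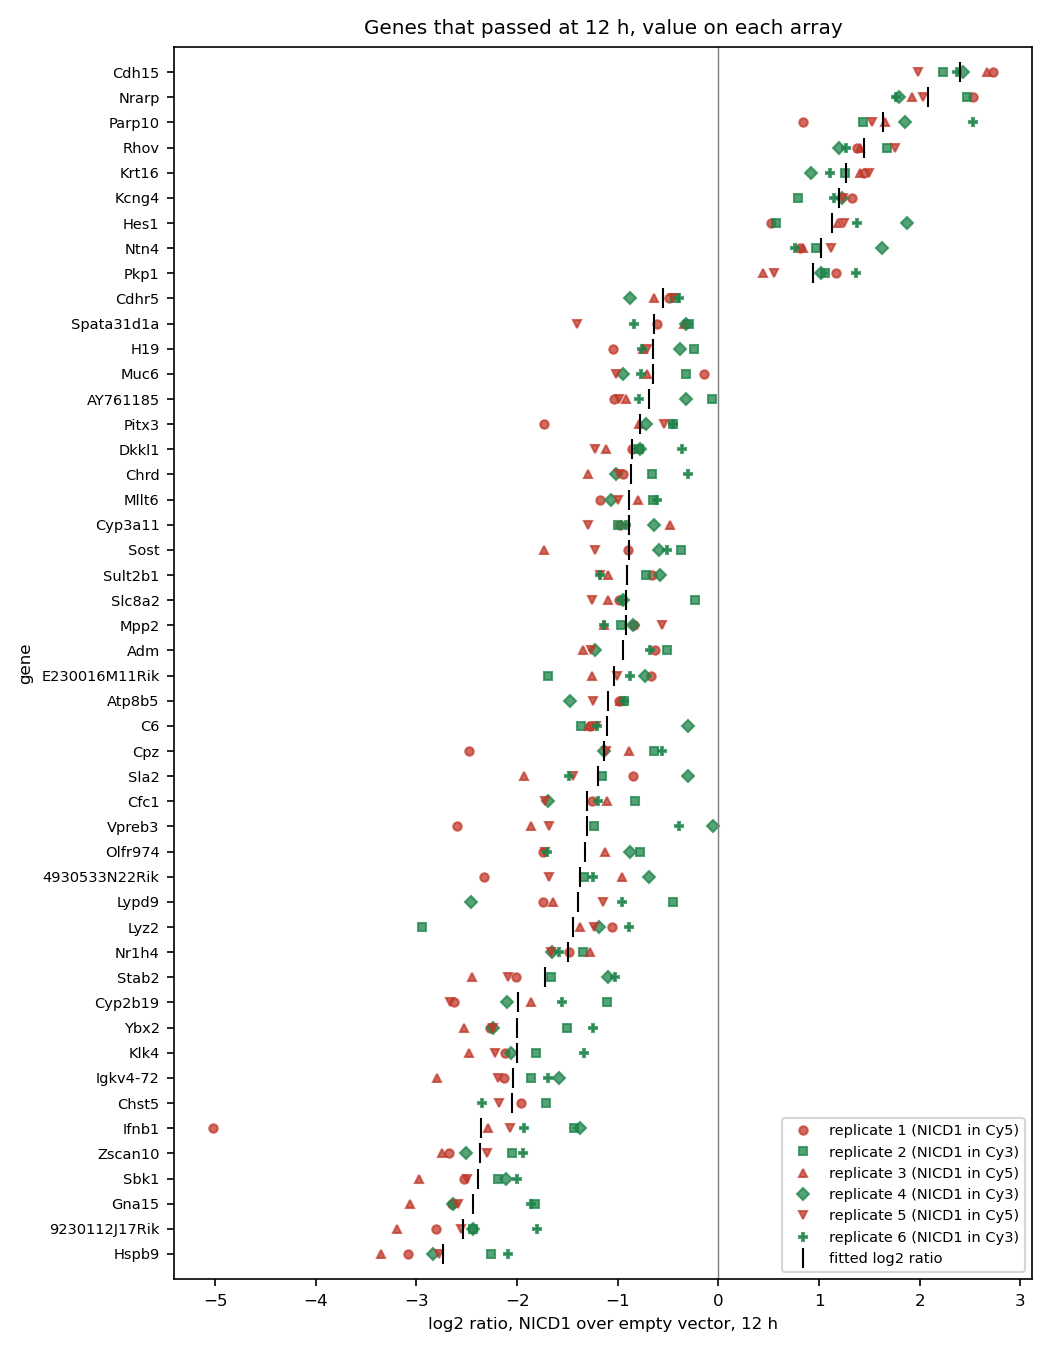
Log2 ratios of NICD1 over empty vector at 12 h (x axis) for the 48 genes that passed (y axis), with 1 symbol per array, red where NICD1 RNA carried Cy5 and green where it carried Cy3. The black tick is the fitted ratio. No symbol of a higher gene lies below 0 and no symbol of a lower gene above it; Ifnb1 on replicate 1, at -5.02, stands farthest from its own group.

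To show the DNA just before the genes that led each direction, the 250 bases upstream of the RefSeq start (build GRCm38.p6, 5′ to 3′ on the gene's strand) are printed for Nrarp, the other leading rises Cdh15 and Rhov, and the leading falls Hspb9 and 9230112J17Rik. Capitals mark the RBPJ core TGGGAA on either strand, which reads TTCCCA on the opposite one, and the palindromic E-box CACGTG, the form bound by many bHLH factors.
Nrarp promoter, chr2:25180508-25180757, plus strand: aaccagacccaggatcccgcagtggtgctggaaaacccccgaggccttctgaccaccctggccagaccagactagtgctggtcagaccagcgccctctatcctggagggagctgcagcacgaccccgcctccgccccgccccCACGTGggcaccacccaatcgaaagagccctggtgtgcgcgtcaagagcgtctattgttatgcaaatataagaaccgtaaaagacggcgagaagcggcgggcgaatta
Cdh15 promoter, chr8:122848124-122848373, plus strand: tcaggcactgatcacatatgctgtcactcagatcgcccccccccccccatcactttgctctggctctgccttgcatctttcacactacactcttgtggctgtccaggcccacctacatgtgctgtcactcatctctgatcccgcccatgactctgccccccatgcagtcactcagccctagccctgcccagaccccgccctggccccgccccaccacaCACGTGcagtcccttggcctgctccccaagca
Rhov promoter, chr2:119271227-119271476, minus strand: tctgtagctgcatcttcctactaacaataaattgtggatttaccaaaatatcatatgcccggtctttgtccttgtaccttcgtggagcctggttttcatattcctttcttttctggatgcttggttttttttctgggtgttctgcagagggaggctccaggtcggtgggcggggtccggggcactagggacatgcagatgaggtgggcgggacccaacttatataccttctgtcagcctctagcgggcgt
Hspb9 promoter, chr11:100713679-100713928, plus strand: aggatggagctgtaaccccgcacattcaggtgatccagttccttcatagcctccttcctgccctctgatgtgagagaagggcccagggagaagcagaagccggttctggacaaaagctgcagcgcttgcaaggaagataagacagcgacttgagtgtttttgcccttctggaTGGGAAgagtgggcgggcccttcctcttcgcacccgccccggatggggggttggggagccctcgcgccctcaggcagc
9230112J17Rik promoter, chr9:60545883-60546132, minus strand: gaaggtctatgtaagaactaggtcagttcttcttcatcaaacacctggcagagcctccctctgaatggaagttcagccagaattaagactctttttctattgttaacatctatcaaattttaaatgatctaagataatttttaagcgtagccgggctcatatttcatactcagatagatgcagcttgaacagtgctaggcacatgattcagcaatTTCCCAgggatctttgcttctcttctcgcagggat

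Nrarp and Cdh15 each held 1 CACGTG and no TGGGAA in this window. Hspb9 and 9230112J17Rik each held 1 TGGGAA match and no CACGTG, and Rhov held neither. The promoter table had entries for 5 of the 9 rises and 36 of the 39 falls. TGGGAA was in 0 of those 5 and in 10 of those 36 (27.8%), against 20.6% of the 13668 tested genes with an entry and 21.5% of all 27025 promoters in the table. The longer GTGGGAA, which contains the core, was in 0 of 5 and in 2 of 36 (5.56%), against 5.35% of tested genes and 5.41% of all promoters. CACGTG was in 2 of 5 and in 1 of 36 (2.78%), against 7.4% of tested genes and 6.05% of all promoters. TATAAA was in 0 of 5 and in 3 of 36 (8.33%), against 10.3% and 13.0%. The windows of the falls held a median of 4.5 CpG dinucleotides and those of the rises 8, against 13 over the tested genes and 6 over all promoters in the table. These letter matches describe the windows alone and are no evidence of binding.

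Hspb9, a small heat shock protein gene known from testis (Entrez Gene 75482, chromosome 11), read -3.08, -2.26, -3.35, -2.83, -2.77 and -2.09. Every array lay below -2, and the fit gave -2.73 ± 0.20 (n = 6, limma adjusted p = 5.57e-08), a 6.64-fold lower ratio. The other 8 small heat shock protein genes measured did not pass, and the list's median was 0.03. Of 9 measured genes on a heat shock response list 0 passed, with 0 at an unadjusted p under 0.05.

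Next in order of size was the long noncoding RNA 9230112J17Rik (Entrez Gene 100504561, chromosome 9), at -2.81, -2.44, -3.19, -2.44, -2.56 and -1.80. No array came near 0, and the fitted value was -2.54 ± 0.15 (n = 6, limma adjusted p = 6.08e-09). Gna15, the G protein alpha subunit that couples many receptors to phospholipase C (Entrez Gene 14676, chromosome 10), read -2.64, -1.83, -3.06, -2.63, -2.59 and -1.86. It gave -2.44 ± 0.16 (limma adjusted p = 1.96e-08), and none of the other 13 measured alpha subunits passed.

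Sbk1, a serine/threonine kinase with an SH3-binding domain (Entrez Gene 104175, chromosome 7), read -2.53, -2.19, -2.98, -2.11, -2.50 and -2.00. Zscan10, a zinc finger transcription factor of pluripotent cells (Entrez Gene 332221, chromosome 17), read -2.67, -2.05, -2.74, -2.50, -2.30 and -1.94. Both had tight arrays, at -2.38 ± 0.14 and -2.37 ± 0.13, and they shared the lowest adjusted p of all genes at 12 h (limma, 3.44e-09). The other 7 SCAN domain zinc finger genes measured did not pass.

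Ifnb1, which encodes interferon beta, had log2 ratios of -5.02, -1.44, -2.29, -1.38, -2.07 and -1.93 (Entrez Gene 15977, chromosome 4). Replicate 1 lay far below the rest, and the fitted value was -2.35 ± 0.32 (n = 6, limma adjusted p = 0.000462). Ifnb1 kept its call in all 6 fits that left out 1 array at 12 h, but did not pass with the 12 h arrays fitted alone (adjusted p = 0.244). It was the single fall that was larger at 24 h, at -3.44, though the difference between the times did not pass (adjusted p = 0.671). Of the 20 measured interferons, cytokines and NF-kB response genes, Ifnb1 alone passed at 12 h, and Ifna4, an interferon alpha, stood at -0.43 ± 0.27.

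A further group fell about 4-fold. An immunoglobulin kappa variable segment (Entrez Gene 385109, chromosome 6) read -2.13, -1.87, -2.80, -1.59, -2.19 and -1.70. Klk4, a kallikrein protease of enamel and prostate (Entrez Gene 56640, chromosome 7), read -2.12, -1.81, -2.48, -2.06, -2.22 and -1.33. Ybx2, a germ-cell RNA-binding protein (Entrez Gene 53422, chromosome 11), read -2.27, -1.50, -2.53, -2.24, -2.24 and -1.25. In all 3 genes every array was below -1, with fitted values of -2.04 ± 0.14, -2.00 ± 0.14 and -2.00 ± 0.16 and limma adjusted p of 5.05e-08, 4.89e-08 and 4.55e-07. The other 9 kallikreins measured did not pass.

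Chst5 and Cyp2b19 had equal depth of fall but weaker support. Chst5, a carbohydrate sulfotransferase (Entrez Gene 56773, chromosome 8), was measured on 4 arrays, at -1.96, -1.71, -2.18 and -2.34 on replicates 1, 2, 5 and 6, and gave -2.05 ± 0.36 (limma adjusted p = 0.0297). With any of those 4 left out it had too few values to be fitted. Cyp2b19, a keratinocyte cytochrome P450 (Entrez Gene 13090, chromosome 7), read -2.63, -1.11, -1.86, -2.10, -2.66 and -1.56, and gave -1.99 ± 0.36 (limma adjusted p = 0.0317). Leaving out any 1 of the 6 arrays ended the call of Cyp2b19, with adjusted p from 0.0596 to 0.155.

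Stab2, a scavenger receptor for hyaluronan on liver sinusoidal endothelium (Entrez Gene 192188, chromosome 10), read -2.01, -1.67, -2.44, -1.10, -2.09 and -1.03. Nr1h4, the bile acid receptor FXR (Entrez Gene 20186, chromosome 10), read -1.48, -1.34, -1.27, -1.65, -1.66 and -1.59. The arrays of Nr1h4 were the closer together, and the fitted values were -1.73 ± 0.18 and -1.50 ± 0.17 (limma adjusted p = 2.09e-05 and 3.84e-05). None of the other 7 measured genes on a list of FXR and its bile acid targets passed.

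Lyz2, the lysozyme of macrophages and alveolar type II cells (Entrez Gene 17105, chromosome 10), read -1.05, -2.94, -1.38, -1.18, -1.24 and -0.88. Replicate 2 stood apart, the fitted value was -1.45 ± 0.26 (limma adjusted p = 0.0108), and the call was lost without replicate 2, 3 or 5 (adjusted p = 0.0576 to 0.0659). The other 9 measured alveolar type II markers did not pass, among them surfactant protein gene Sftpb at 0.22 ± 0.17, and the list's median was 0.03. None of 5 macrophage markers passed, with 0 at an unadjusted p under 0.05 and a median of 0.07.

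Cfc1, the Nodal co-receptor Cryptic (Entrez Gene 12627, chromosome 1), read -1.26, -0.83, -1.11, -1.69, -1.72 and -1.20 and gave -1.30 ± 0.12 (limma adjusted p = 4.74e-06). Sla2, an adaptor that dampens antigen receptor signalling (Entrez Gene 77799, chromosome 2), read -0.85, -1.16, -1.94, -0.30, -1.45 and -1.48 and gave -1.20 ± 0.16 (limma adjusted p = 0.000413). The 6 arrays of Cfc1 all lay below -0.8, whereas replicate 4 of Sla2 came near 0. The BMP antagonist Chrd, the Wnt antagonist Sost and the homeobox gene Pitx3 fell by less, at -0.87 ± 0.12, -0.89 ± 0.15 and -0.78 ± 0.15. The call of Pitx3 was lost without replicate 1, 3, 4 or 5 (limma adjusted p = 0.0537 to 0.13).

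Vpreb3, a partner of the pre-B-cell receptor (Entrez Gene 22364, chromosome 10), read -2.60, -1.23, -1.86, -0.05, -1.69 and -0.39 and gave -1.30 ± 0.18 (limma adjusted p = 0.000576). Its 3 arrays with NICD1 in Cy5 were lower than its 3 arrays with NICD1 in Cy3, and it was the single gene of the 48 whose dye term passed (adjusted p = 0.00114). Over all genes the dye term passed for 784 (4.6%). C6, a terminal complement component (Entrez Gene 12274, chromosome 15), read -1.27, -1.37, -1.29, -0.30, -1.22 and -1.21. Replicate 4 alone was close to 0, and the fit gave -1.11 ± 0.18 (limma adjusted p = 0.00506).

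Atp8b5, a phospholipid flippase gene (Entrez Gene 320571, chromosome 4), read -0.99, -0.94, -0.98, -1.47, -1.24 and -0.94. Its arrays were among the closest together, and it gave -1.09 ± 0.13 (limma adjusted p = 5.72e-05). Cpz, a carboxypeptidase that binds Wnt proteins (Entrez Gene 242939, chromosome 5), read -2.48, -0.64, -0.89, -1.13, -1.12 and -0.56 and gave -1.14 ± 0.23 (limma adjusted p = 0.0285). Replicate 1 was its lowest, and the call was lost without any of replicates 1, 2, 4, 5 and 6 (adjusted p = 0.0576 to 0.199). The olfactory receptor gene Olfr974 (Entrez Gene 259111, chromosome 9) read -1.74, -0.78, -1.12, -0.88, -1.72 and -1.71 and gave -1.32 ± 0.18 (limma adjusted p = 0.000462).

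Lypd9 (Entrez Gene 403200, chromosome 11) read -1.74, -0.45, -1.65, -2.46, -1.14 and -0.96 and gave -1.40 ± 0.29, the weakest call of all (limma adjusted p = 0.0458). It was lost without any of replicates 1, 3, 4, 5 and 6 (adjusted p = 0.0519 to 0.243). The RIKEN gene 4930533N22Rik (Entrez Gene 75205, chromosome 7) read -2.33, -1.34, -0.96, -0.69, -1.69 and -1.24, and E230016M11Rik (Entrez Gene 320172, chromosome 6) read -0.67, -1.69, -1.25, -0.73, -1.01 and -0.88. These gave -1.38 ± 0.22 and -1.04 ± 0.16 (limma adjusted p = 0.00454 and 0.00219), and at 24 h they stood at -0.01 and 0.02.

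The remaining falls were below 1 in size. Mpp2, a membrane scaffold of the MAGUK family, was at -0.92 ± 0.10 (limma adjusted p = 2.24e-05), and the sodium-calcium exchanger gene Slc8a2 at -0.91 ± 0.13. Adm, the vasodilator adrenomedullin, was at -0.94 ± 0.18 (adjusted p = 0.019), without a pass in the other 11 measured hypoxia genes, among them Vegfa at 0.16 ± 0.11. Mllt6 (-0.88 ± 0.12), the acrosomal protein gene Dkkl1 (-0.85 ± 0.12), the imprinted noncoding RNA H19 (-0.65 ± 0.11), the sterol sulfotransferase gene Sult2b1 (-0.90 ± 0.17), the hepatic P450 Cyp3a11 (-0.88 ± 0.17), AY761185 (-0.69 ± 0.13), the gastric mucin gene Muc6 (-0.65 ± 0.12), Spata31d1a (-0.64 ± 0.13) and the intestinal protocadherin-like gene Cdhr5 (-0.55 ± 0.10) made up the rest. Of these, Adm, Sult2b1, Cyp3a11, AY761185, Muc6, Spata31d1a and Cdhr5 each lost their call on leaving out at least 3 of the 6 arrays in turn, with adjusted p from 0.0523 to 0.217, and each of the 6 arrays ended at least 1 of these calls.

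The falls were spread over 15 chromosomes with a share of 28.2% (11 genes) on chromosome 7, which holds 8.39% of the genes tested. For each of the 48 genes the nearest tested neighbours on either side were taken by the RefSeq order. Of these 96 neighbours 0 passed at 12 h, but only 0.282% of all genes did, so a count of 0 in so small a set is no result about them. The 78 neighbours of the falls had a median of -0.03, from -0.62 to 0.58, against 0.0041 over all genes. The 18 neighbours of the rises had a median of 0.13.

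Most called genes were read by a single row of the array. Of the 48, 43 had 1 row, against 58.8% of all genes tested. Fitted row by row, 71 of 37340 rows (0.19%) passed at 12 h, 16 higher (0.0428%) and 55 lower (0.147%). Rows without a single gene symbol gave 14 passes among 8541 (0.164%), 12 lower (0.14%) and 2 higher (0.0234%). In 11 genes with several rows, 1 row passed as lower, with a median of -1.52, while their other 14 rows had a median of 0.05 and ran from -0.28 to 0.50. H19 is an example, with rows at -1.73 and 0.43, and Vpreb3, at -2.84 and 0.23, is another. The same held for Sost (-1.76 and -0.01) and Mllt6 (-1.69 and -0.08). Bmf, a proapoptotic BH3-only gene whose mean did not pass (-0.64 ± 0.14, limma adjusted p = 0.0553), had rows at -1.52, -0.15 and 0.02. In 5 genes 1 row passed as higher, and their other 8 rows had a median of 0.02. In both directions the rows were split by this same test, so the gap between them is a description. No annotation used here places the rows within transcripts, and what sets the rows of a gene apart was not tested.

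**Figure D3:**
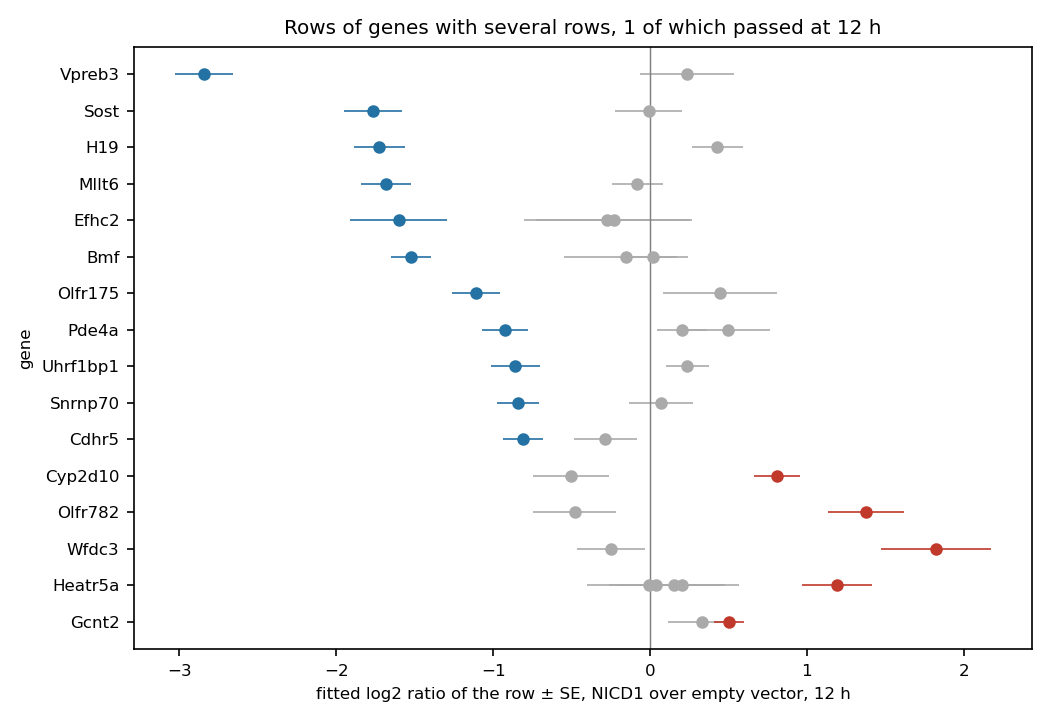
Fitted log2 ratio ± SE at 12 h (x axis) of every row of the 16 genes with several rows of which 1 passed (y axis). Blue rows passed as lower, red rows as higher and grey rows did not pass. In the 11 genes with a blue row the grey rows lie between -0.28 and 0.50, and the colouring by this test itself favours a gap.

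Interferon-stimulated genes, which answer secreted interferon, did not pass at 12 h although Ifnb1 did. Of the 27 measured, 0 passed (limma, 3 at an unadjusted p under 0.05, which 5.36% of all genes met). The list's median was -0.04, within -0.31 to 0.20 on each of the 6 arrays. At 24 h the median was -1.94 and all 27 passed as lower, where 221 of all genes (1.3%) did. The difference between 12 and 24 h passed for 25 of the 27, all higher at 12 h, against 131 of all genes (0.768%). The exceptions were Irf9, a subunit of the interferon-activated factor ISGF3 (adjusted p = 0.326), and Dhx58, an RNA helicase of antiviral sensing (adjusted p = 0.11).

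Mx2, an antiviral GTPase, read -0.62, -0.74, -1.08, -0.32, 0.05 and 0.27 at 12 h, on both sides of 0, and its fitted value of -0.41 ± 0.17 became -3.63 ± 0.16 at 24 h. Trim30a, an interferon-induced ubiquitin ligase, read 0.53, -0.45, 0.20, 0.50, 0.14 and 0.22 and went from 0.19 ± 0.11 to -2.74 ± 0.11. Their differences passed at limma adjusted p of 4.43e-08 and 2.23e-09. A difference with the higher ratio at 12 h also passed in 7 of 14 nucleic acid sensing genes, against 0.768% of all genes. Among them were the cytosolic sensor Zbp1, from -0.15 to -2.18, and the RNA sensor Ifih1, from 0.07 to -1.32. The rest of the 14 did not differ by this test. Of 20 cytokine genes, Ifna4, Il6, Cxcl10 and Ccl5 differed too, each higher at 12 h, and lay between -0.43 and -0.02 then.

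**Figure D4:**
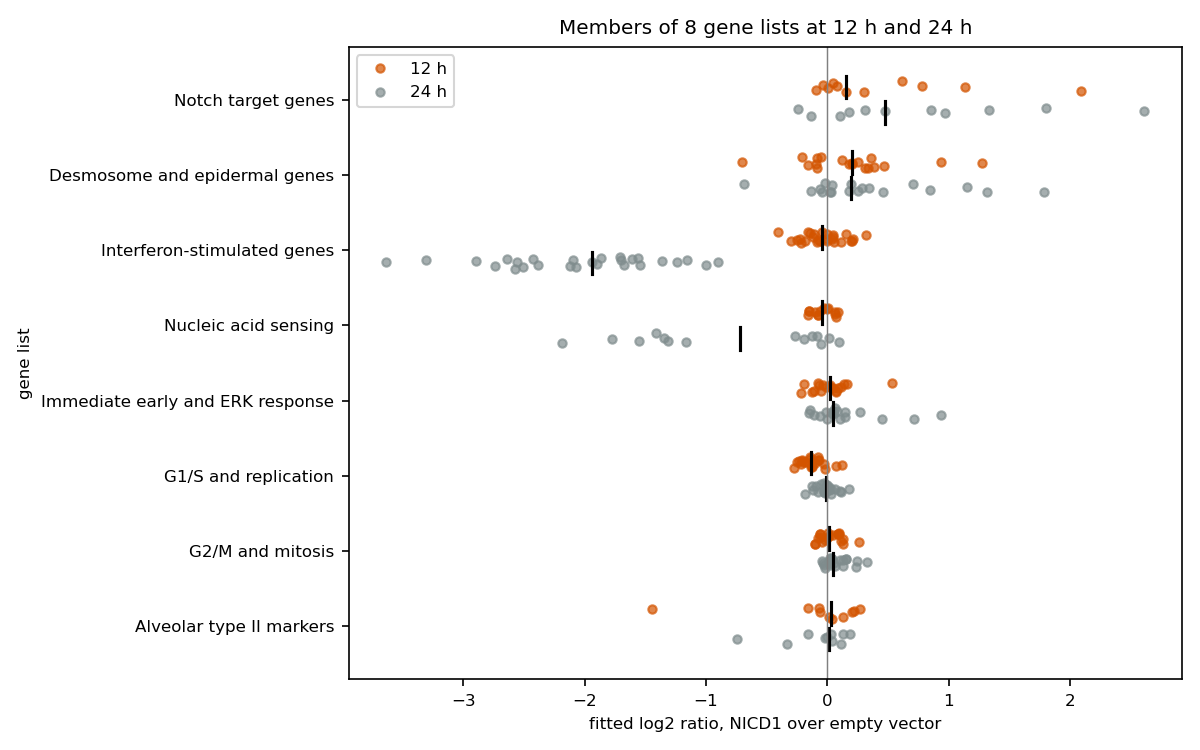
Fitted log2 ratios of NICD1 over empty vector (x axis) for the members of 8 gene lists (y axis), with 12 h in orange, 24 h in grey and the list median as a black bar. The 27 interferon-stimulated genes centre on -0.04 at 12 h and -1.94 at 24 h.

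Growth and stress programmes showed no pass at 12 h. Of 21 G1/S and replication genes 0 passed (3 at an unadjusted p under 0.05, a threshold that 5.36% of all genes met). Of the 21, 19 were below 0, whereas 51.1% of all genes were above 0. The list's median was -0.13, and its array medians ran from -0.25 to 0.05. Cdc6, which loads the replicative helicase, was at -0.21 ± 0.09 and the helicase subunit Mcm3 at -0.21 ± 0.09. Of 20 G2/M genes 0 passed (0 at an unadjusted p under 0.05), and the median was 0.01. Of 15 genes of the ATF4 and unfolded protein response 0 passed (3 at an unadjusted p under 0.05), with a median of -0.08, and the lowest p was that of the stress factor Ddit3 at -0.37 ± 0.11. Of 11 p53 targets 0 passed (0 at an unadjusted p under 0.05), with a median of -0.03. Of 19 immediate early and ERK response genes 0 passed (1 at an unadjusted p under 0.05), and this was the ERK phosphatase gene Dusp6 at 0.53 ± 0.16 (limma adjusted p = 0.427).

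Markers of other lung cells did not pass either. This covered 8 alveolar type I, 5 club and goblet, 5 ciliated, 8 basal, 7 fibroblast and 6 endothelial markers, with medians of 0.08, 0.17, -0.18, 0.02, 0.02 and 0.10. At an unadjusted p under 0.05, which 5.36% of all genes met, stood 1 type I, 1 club and goblet and 3 basal markers. None of the ciliated, fibroblast and endothelial ones did. The 8 basal markers ran from -0.28 to 0.38, with 4 above 0. Scgb1a1, the club cell secretoglobin, was at 0.52 ± 0.25 and the ciliogenesis factor Foxj1 at 0.30 ± 0.25, each the highest of its list. The club and goblet list reached down to -0.79, with 4 of 5 members above 0. The ciliated list reached down to -0.28, with 2 of 5 above 0.

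Just past the threshold lay genes whose ratios are given without a call. Il33, an alarmin cytokine of epithelia, read 2.36, 1.65, 3.00, 1.16, 0.84 and -0.46. The arrays ranged widely, with replicate 6 below 0, and the fitted value was 1.43 ± 0.31 (limma adjusted p = 0.0599). It passed at 24 h (2.73) and at 48 h (2.89). The lysosomal hydrolase Idua (-0.53 ± 0.11), the gap junction gene Gja4 (-0.91 ± 0.19), the phosphatase Phospho1 (-0.96 ± 0.21) and the receptor kinase Grk3 (-0.65 ± 0.14) were below 0 on all 6 arrays, with adjusted p of 0.052 to 0.0646. Napb, a vesicle fusion factor, was also below 0 on all 6 (-0.37 ± 0.08, adjusted p = 0.0752), and the fibrillar collagen gene Col5a3 was above 0 on all 6 (0.58 ± 0.13, adjusted p = 0.0869). The 2 remaining RIKEN genes near the threshold, 4921534H16Rik at -0.58 ± 0.13 and 4931406B18Rik at 1.51 ± 0.31 (n = 5), each crossed 0 on 1 array.

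At the later times the falls read nearer 0, while 7 of the 9 rises still passed at 24 h. The 39 falls had a median of -1.20 at 12 h, -0.37 at 24 h and -0.15 at 48 h, and 38 were smaller at 24 h, all but Ifnb1. Because they were chosen by their 12 h values, this order is a description, and so are the counts of differences that follow, since that choice favours a larger size at 12 h. In the test of the difference between 12 and 24 h, which 153 of all genes passed (0.897%), 22 of them lower at 12 h (0.129%), 13 of the 39 passed and each was nearer 0 at 24 h. Sbk1 went from -2.38 to -1.18 (limma adjusted p = 0.00082), Zscan10 from -2.37 to -1.37 (adjusted p = 0.00518) and Nr1h4 from -1.50 to -0.37 (adjusted p = 0.014). At 24 h 13 of the 39 still passed as lower, where 221 of all genes (1.3%) did. By 48 h 6 did, against 2355 of all genes (13.8%), and Mllt6 passed as higher, at 0.38 (adjusted p = 0.0162). In the test between 12 and 48 h, passed by 1563 genes (9.17%), 836 higher (4.9%) and 727 lower (4.26%) at 12 h, 31 of the 39 differed. That total of 1563 was 873, 963 and 890 without 12 h replicate 1, 4 or 5, and 332 without 48 h replicates 5, 6 and 7, an alternative chosen after the data were seen.

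The 9 rises had medians of 1.27, 1.31 and 0.45 at the 3 times. At 24 h 7 of them passed as higher, where 63 of all genes did (0.369%), and 5 at 48 h, where 2392 did (14%). Cdh15, Krt16, Ntn4 and Pkp1 passed at all 3 times, as did Nrarp, whose sign set the direction of the columns. The order of the ratios differed by gene. Pkp1 went from 0.94 through 1.79 to 2.49, its 12 and 48 h ratios differing (limma adjusted p = 0.000266). Hes1 went from 1.13 through 0.97 to 0.25 (adjusted p = 0.0434 between 12 and 48 h), while Krt16 read between 1.06 and 1.31. Parp10 alone among the rises had a ratio at 24 h that was smaller by a tested difference.

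**Figure D5:**
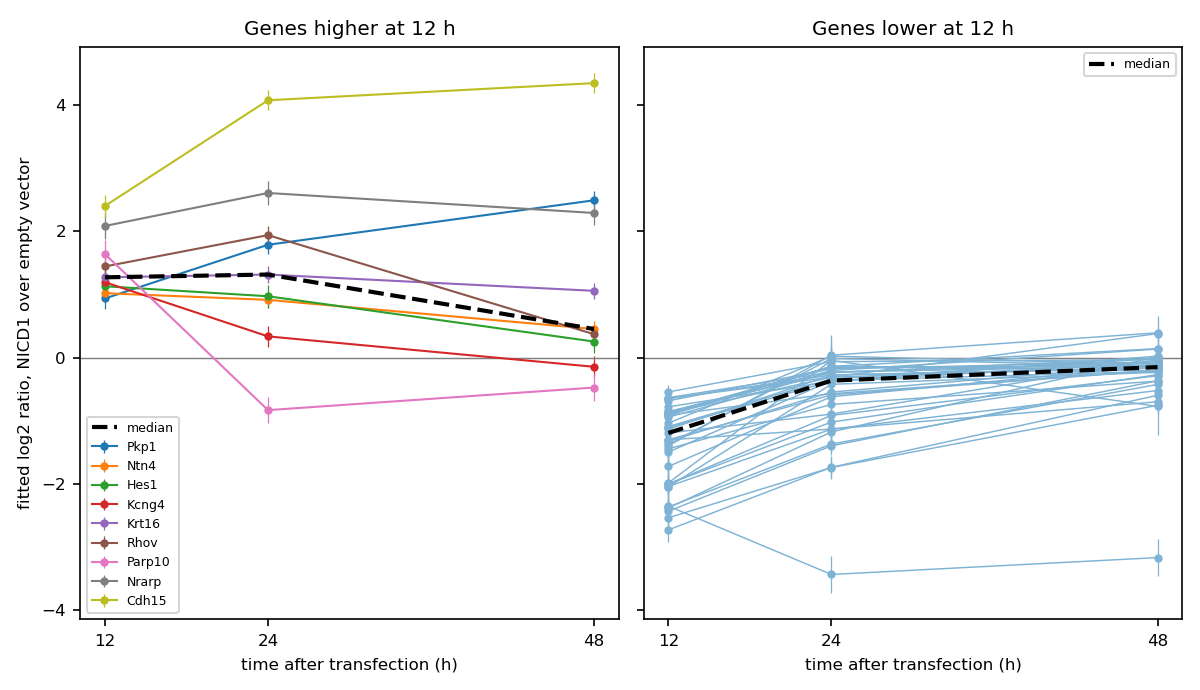
Fitted log2 ratios of NICD1 over empty vector ± SE (y axis) against time after transfection in hours (x axis) for the 9 genes higher at 12 h (left, by name) and the 39 lower at 12 h (right, blue). The dashed line is the median, which goes from -1.20 to -0.15 in the falls; the lowest blue line is Ifnb1, at -3.44 at 24 h.

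The genes that passed at 24 h were also read at 12 h. The 63 genes higher at 24 h had a median of 0.25 at 12 h, and 53 of them (84.1%) were above 0. Of the 63, 7 had a call as higher at 12 h, against 0.0528% of all genes. Nrarp, which set the direction of the columns, was among them. The 221 genes lower at 24 h had a median of -0.04 at 12 h, and 135 (61.1%) were below 0. Of the 221, 13 had a call as lower at 12 h, against 0.229% of all genes. Over all genes 51.1% were above 0 at 12 h.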

How the data were processed

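MLE12 cells transfected with NICD1 or empty vector were compared on 20 dual-colour Agilent arrays, 6 at 12 h and 7 each at 24 and 48 h. The deposited table held 45220 rows of log2 ratios as the authors made them; limma is named in the submitters' processing notes, with no version, and background correction, normalisation and ratio direction were not stated. Of the values 14.2% were missing. The columns 12h.3 and 48h.3 were multiplied by -1. Rows were named from the array annotation (33653 rows with 1 symbol, 56 with several, 11511 not listed), and named rows with at least 4 values at each time were averaged by gene.

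The model for 17051 genes, run in limma 3.58.1 (R 4.3.3), had 3 time coefficients and a dye term over all 20 arrays, with two-sided moderated tests and Benjamini-Hochberg adjustment over all genes. A pass was an adjusted p under 0.05. The code was tested on simulated data. The number of arrays limits the precision, and single intensities were not analysed here.

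Genes named were all that passed at 12 h, the Notch genes Notch1, Hes1, Hey1, Heyl and Nrarp, up to 4 members of each of 32 lists by lowest p, and the 10 genes of lowest p that did not pass. Array values are given where the ratio was at least 1 in size or the gene was a Notch target. Outside this rule, genes were named after their values were seen: the list members that differed between 12 and 24 h, the 2 interferon-stimulated genes that did not, and the example rows. The arrays, lists and alternatives were chosen with earlier results of these data known. Alternatives were the arrays and columns fitted, the dye term, a replicate block, the row and value filters, array scaling and leaving out each 12 h array.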

Additional observations from a re-analysis of the deposited data

Results flagged for a closer look

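Of 51 named genes, 6 had 1 array far from the other 5 at 12 h by Dixon's test, which flags about 1 in 20 groups by chance. Ifnb1 read -5.02 on replicate 1, with the others between -2.29 and -1.38. Lyz2 read -2.94 on replicate 2 (others -1.38 to -0.88), Cpz -2.48 on replicate 1 (others -1.13 to -0.56) and Pitx3 -1.73 on replicate 1 (others -0.79 to -0.45). In C6 and Slc8a2 the distant array was the one nearest 0, at -0.30 on replicate 4 (others -1.37 to -1.21) and -0.23 on replicate 2 (others -1.25 to -0.95).

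By limma's test of the difference, 15 of the 48 genes differed between 12 and 24 h, against 153 of all genes (0.897%). The 48 were themselves chosen by their 12 h values. The 12 h minus 24 h log2 difference was -1.68 for Cdh15 and 2.47 for Parp10. Among the falls it was -1.04 for Gna15, -1.20 for Sbk1, -0.997 for Zscan10, -0.91 for the immunoglobulin kappa segment (Entrez Gene 385109), -0.98 for Klk4, -1.08 for Ybx2, -1.10 for Stab2 and -1.13 for Nr1h4. It was -1.36 for 4930533N22Rik, -0.76 for Atp8b5, -1.06 for E230016M11Rik, -0.77 for Mpp2 and -0.71 for Chrd.

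Outside the named genes, 14 rows without a single symbol passed at 12 h, 12 of them lower. The 12 had a median of -1.26 at 12 h, -0.30 at 24 h and -0.20 at 48 h, and all 12 were nearer 0 at 24 h, a description, since they were chosen by their 12 h values.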

How the results depend on the processing

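The count of 48 genes at 12 h became 38 with a replicate block, 35 of them among the 48, and 18 with the 12 h arrays alone, 16 of them among the 48. With the inverted columns as deposited the counts were 0 at 12 h (limma, 846 genes at an unadjusted p under 0.05), 46 for 12 against 24 h and 306 for 12 against 48 h. That last count, 1563 in the fit reported, was 538 with the replicate block and 332 without 48 h replicates 5, 6 and 7, an alternative chosen after seeing the data. Across times, 19 same-numbered pairs of arrays correlated at -0.13 to 0.14, with a median of 0.006, and 1 exceeded 0.1. Pairs with other numbers had a median of -0.004. Even the 12 h arrays correlated with each other at a median of only 0.04, so these values cannot decide whether the numbers pair the arrays. Leaving out each 12 h array gave 37 to 47 genes at 12 h, 123 to 140 for 12 against 24 h and 873 to 1227 for 12 against 48 h. Of the 48 genes, 34 passed in all 6 of these fits, 39 with the inverted columns left out and 38 with the 12 and 24 h arrays only. Counts at 12 h under the other alternatives lay between 40 and 68, the latter with arrays scaled to a common spread. With 1 row per gene, H19 turned to 0.43 (adjusted p = 0.728), since its other row was then used. No gene among the 48 changed sign under any other alternative run. The 6 arrays and the unknown signal over background limit what a missing call can mean.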

Other observations

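Wfdc3, which encodes a whey acidic protein domain, was a gene with 2 rows that did not move together, chosen here after its values were seen. Its higher row read 1.82 ± 0.35 at 12 h (limma over single rows, adjusted p = 0.0337), 2.45 at 24 h and 2.41 at 48 h, while the other read -0.25, -0.11 and 0.09. The row of Heatr5a that passed at 12 h read 1.19 ± 0.22 (adjusted p = 0.0272) then and 0.57 at 24 h, and its other 4 rows lay between -0.01 and 0.20 at 12 h.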
